A study of Bos taurus with 9 samples.

Results

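Imprinted genes were followed in blastocysts, the embryos that form at the end of preimplantation development, after their oocytes had been matured in media of differing glucose content. The 10 genes, PEG10, SGCE, PEG3, MEST, PLAGL1, NNAT, PHLDA2, CDKN1C, IGF2 and NAP1L5, were taken by symbol from a table of 22127 bovine genes. All 10 were found once each and all 10 were among the 16469 genes with enough counts to be tested. RNA sequencing covered 9 libraries, 3 for each maturation medium. Cumulus-oocyte complexes were held for 24 h in low glucose medium with BHB (2.75 mM glucose with 1.8 mM BHB, an abbreviation that the labels do not spell out), in low glucose medium (2.75 mM glucose) or in control medium (5.5 mM glucose). Every medium was based on TCM 199 with serum, pyruvate, gentamicin, FSH and estradiol, and after fertilisation in vitro all embryos were cultured alike in SOF medium until day 8. A library was made from 9 to 11 pooled embryos, so that variation between single embryos and their sex was not resolved. The labels used here name neither breed nor animals of origin, and they do not say that replicates are separate cultures. The p-values therefore reflect spread among these particular libraries, which may be partly technical. Pools held 10, 10 and 11 embryos in control and 9, 11 and 9 in low glucose, so not all libraries of these media came from a single pool. With BHB each pool held 10. Whether the pools came from separate culture runs is not known.

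Imprinted genes are transcribed mainly from the copy inherited from a single parent, because DNA methylation laid down in the egg or the sperm tells the parental copies apart. The marks of the egg are set while the oocyte grows, and they are then protected in the early embryo while most other methylation is erased. Many imprinted genes act on growth of the fetus and placenta, and errors at several of them accompany the overgrowth seen in some calves from cultured embryos. The libraries report total transcript from both copies, and the parental origin of the reads was not measured. Parental origin is given below as known from mammals in general. No sequences are shown, since no sequence table was used here.

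Total estimated counts per library, in units of 1e6, ran from 55.6 to 75.2. Of the markers listed for the embryo's lineages, 4 of 5 for the epiblast, 11 of 11 for the trophectoderm and 7 of 7 for the hypoblast were in the table. POU5F1 of the epiblast, CDX2, KRT8 and KRT18 of the trophectoderm and GATA6 of the hypoblast had counts in every library, while FOXA2 of the hypoblast was at 0 in control replicate 1. Levels are given in CPM, estimated counts per 1e6 reads after library sizes had been scaled by TMM, which evens out composition. They are not divided by transcript length, so they are compared between libraries and not between genes.

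PEG10 and its chromosomal neighbour SGCE were lower after both low glucose media than after control medium, PEG10 at 8.19 ± 1.69 CPM with BHB, 5.25 ± 0.973 CPM in low glucose and 23.6 ± 3.96 CPM in control (SD, n = 3 each). SGCE averaged 0.564 ± 0.220 CPM with BHB, 0.716 ± 0.294 CPM in low glucose and 2.81 ± 0.271 CPM in control. IGF2 was also lower in all 6 low glucose libraries than in any control library, and it passed the test when both low glucose media were set together against control. The other 7 genes did not pass in any comparison. Between the low glucose media with and without BHB no member passed.

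**Figure D1:**
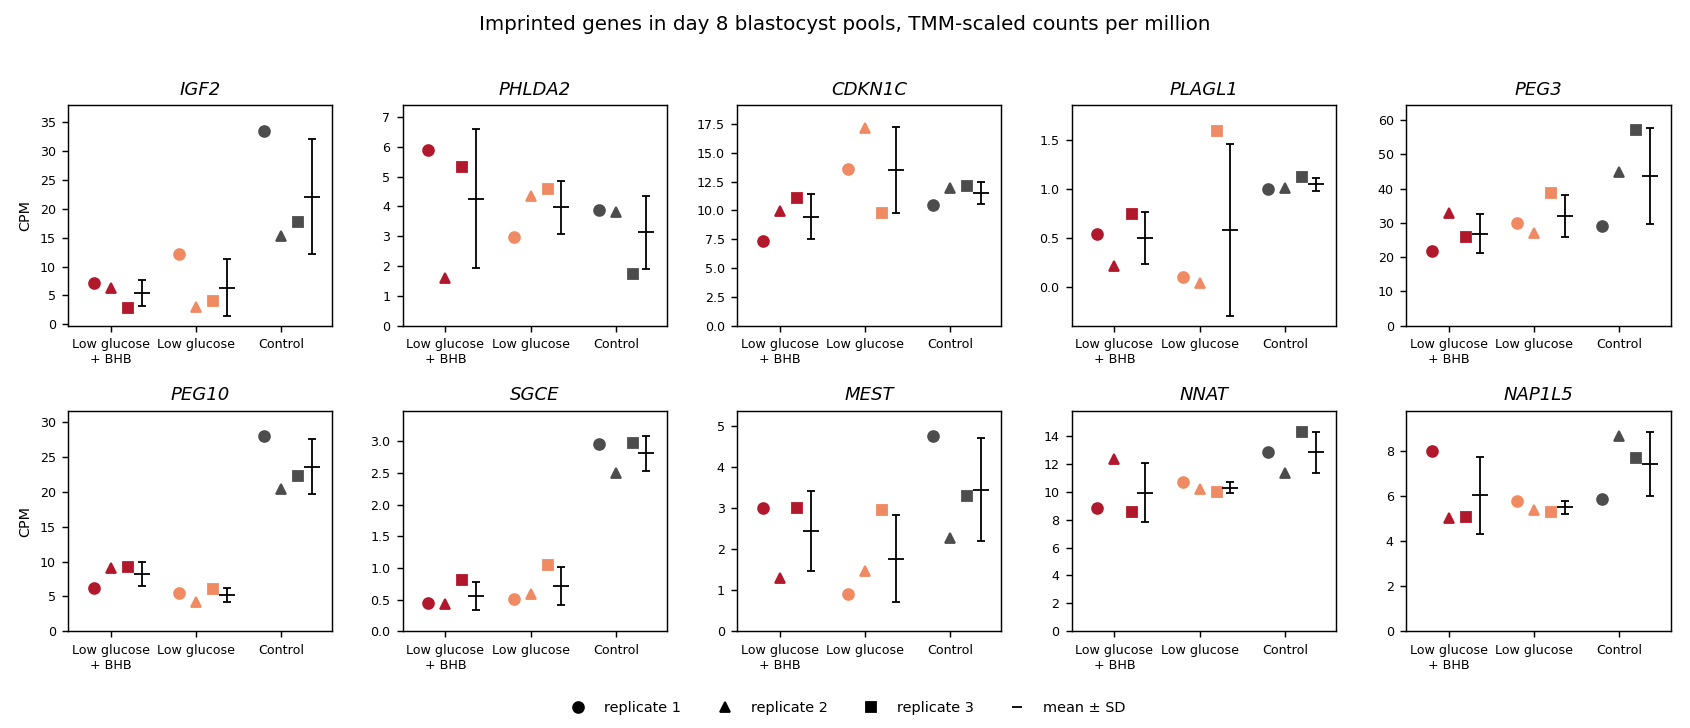
Level of each of the 10 imprinted genes in TMM-scaled CPM (vertical axes, linear) in the 9 libraries, by maturation medium, with the mean and SD of the 3 libraries of a medium beside the points. PEG10, SGCE and IGF2 lie lower in every low glucose library than in any control library, and the media overlap for PHLDA2, CDKN1C and MEST.

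IGF2, which encodes a growth factor of the fetus and placenta and is transcribed from the paternal copy in most tissues, had the widest range of the members after PLAGL1, 11.6-fold between the lowest and the highest library. It stood at 7.14, 6.37 and 2.87 CPM in the 3 libraries with BHB, at 12.1, 2.96 and 4.04 CPM in low glucose, and at 33.4, 15.2 and 17.6 CPM in control. The highest library of each medium was replicate 1, and the lowest control library still exceeded the highest low glucose one. The log2 fold change was -2.01 with BHB against control (SE 0.512, edgeR adjusted p = 0.102) and -1.79 in low glucose against control (SE 0.508, edgeR adjusted p = 0.132), so neither passed the threshold of 0.05. With both low glucose media together it was -1.90 (SE 0.411, edgeR adjusted p = 0.0244), a level 3.74-fold lower than in control and lower in 6 of 6 libraries.

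That call for IGF2 was lost without control replicate 1 (-1.48), control replicate 3 (-2.03), low glucose replicate 3 (-1.78) or BHB replicate 3 (-1.75). Without low glucose replicate 1, the difference of low glucose from control was -2.64 and passed, and that with BHB, at -2.00, passed as well. All 9 of the IGF2 values in the deposited table were not whole numbers, so part of its reads was shared with other transcripts by estimation. INS, the gene next to it in the RefSeq table, had no counts in any library.

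PHLDA2 and CDKN1C, both transcribed mainly from the maternal copy, restrain growth: PHLDA2 limits the placenta, and CDKN1C encodes an inhibitor of cyclin-dependent kinases. PHLDA2 stood at 5.87, 1.59 and 5.31 CPM with BHB, at 2.96, 4.35 and 4.58 CPM in low glucose, and at 3.88, 3.81 and 1.72 CPM in control. The lowest libraries were BHB replicate 2 and control replicate 3, and the media overlapped. Its log2 fold change was 0.44 with BHB against control (95% interval -0.55 to 1.43) and 0.34 in low glucose against control (95% interval -0.66 to 1.33), neither past the threshold. PHLDA2 was the only member whose fitted fold change was above 0 in both comparisons with control.

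CDKN1C stood at 7.32, 9.92 and 11.1 CPM with BHB, at 13.6, 17.2 and 9.77 CPM in low glucose, and at 10.4, 11.9 and 12.1 CPM in control. The control libraries lay close together, those with BHB lay level with them or lower, and those of low glucose spread to either side. The log2 fold change was -0.28 with BHB against control (SE 0.228) and 0.23 in low glucose against control (SE 0.228), with edgeR adjusted p of 0.925 and 0.997.

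PLAGL1 and PEG3 encode zinc finger proteins made from the paternal copy. PLAGL1 regulates other imprinted genes in the mouse, and PEG3 is known for roles in growth and maternal behaviour in that species. PLAGL1 had the fewest counts of all members and the least even replicates, at 0.541, 0.216 and 0.745 CPM with BHB, at 0.107, 0.0422 and 1.59 CPM in low glucose, and at 1.01, 1.02 and 1.13 CPM in control. Low glucose replicate 3, with 94 counts, was the highest of all libraries. Low glucose replicates 1 and 2 were the lowest, with 7 counts (exact Poisson 95% interval 2.81 to 14.4) and 3 counts (0.619 to 8.77), intervals that cover counting error only. The SD was 151% of the mean in low glucose, 53.3% with BHB and 6.42% in control.

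The libraries with BHB all lay lower than control for PLAGL1, yet the log2 fold change of -1.07 had a wide 95% interval, from -3.28 to 1.14. In low glucose against control it was -0.86 (SE 1.01, edgeR adjusted p = 0.997). Without low glucose replicate 3 it was -3.79, with an edgeR adjusted p of 0.0726 within a range of 0.0726 to 1 over the 9 fits that each left out a library.

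PEG3 stood at 21.7, 33.0 and 25.8 CPM with BHB, at 29.9, 27.0 and 38.8 CPM in low glucose, and at 29.2, 45.0 and 57.0 CPM in control. Control replicate 1 fell among the low glucose libraries, and the other control libraries lay above all of them. The log2 fold change was -0.71 with BHB (SE 0.237, edgeR adjusted p = 0.333) and -0.46 in low glucose (SE 0.236, edgeR adjusted p = 0.814). With both media together against control it was -0.58 (95% interval -1.02 to -0.14, edgeR adjusted p = 0.260).

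PEG10 is derived from a retrotransposon and is needed for the placenta in the mouse. SGCE encodes a sarcoglycan of the cell membrane. They lie next to each other in the RefSeq table, and both are paternally expressed. PEG10 stood at 6.23, 9.10 and 9.24 CPM with BHB, at 5.51, 4.17 and 6.06 CPM in low glucose, and at 28.0, 20.4 and 22.3 CPM in control. Every control library lay far above the highest low glucose library, and the media with and without BHB did not overlap either. SGCE stood at 0.443, 0.432 and 0.818 CPM with BHB, at 0.504, 0.591 and 1.05 CPM in low glucose, and at 2.96, 2.50 and 2.97 CPM in control. Replicate 3 was the highest library of each low glucose medium, and the media with and without BHB overlapped.

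With BHB against control, PEG10 fell by 1.53 on the log2 scale (SE 0.219, edgeR adjusted p = 0.00536), or 2.88-fold, and SGCE by 2.32 (SE 0.455, edgeR adjusted p = 0.0259), or 4.98-fold. In low glucose against control, PEG10 fell by 2.17 (SE 0.224, edgeR adjusted p = 0.000728), or 4.50-fold, and SGCE by 1.97 (SE 0.448, edgeR adjusted p = 0.0428), or 3.92-fold. By p-value PEG10 ranked 9 among all genes tested in low glucose and 44 with BHB, while SGCE ranked 323 and 165. Both comparisons use the same control libraries.

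The PEG10 calls held without any single library, but that with BHB was lost without the first replicates of all 3 media together (-1.22). SGCE had 27 to 200 counts per library, and 8 of its 9 values were not whole numbers. Its call in low glucose was lost without low glucose replicate 1 (-1.76) or 2 (-1.84) or any single control library (-1.93, -2.05 and -1.91). Its call with BHB was lost without any single BHB library (-2.17, -2.15 and -2.68) or any single control library (-2.28, -2.39 and -2.25). With both low glucose media together against control, SGCE fell by 2.14 on the log2 scale (SE 0.361, edgeR adjusted p = 0.00507), a call that held without any single library, and PEG10 fell by 1.85 (SE 0.179, edgeR adjusted p = 0.000204). Without the first replicates of all 3 media, SGCE passed in none of its comparisons with control, at -2.13 with BHB (edgeR adjusted p = 0.214), -1.74 in low glucose (edgeR adjusted p = 0.286) and -1.94 with both together (edgeR adjusted p = 0.0704).

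The protein-coding genes on either side of the pair did not pass in any comparison. CASD1, which encodes a sialic acid acetyltransferase and adjoins SGCE, averaged 10.5 ± 1.52 CPM with BHB, 11.4 ± 1.00 CPM in low glucose and 12.0 ± 1.18 CPM in control (SD, n = 3 each). PPP1R9A, which adjoins PEG10 and encodes the actin-binding protein neurabin, averaged 1.71 ± 0.581 CPM with BHB, 1.87 ± 0.231 CPM in low glucose and 2.25 ± 0.539 CPM in control. With both media together against control, the log2 fold change was -0.12 for CASD1 (edgeR adjusted p = 0.925) and -0.34 for PPP1R9A (edgeR adjusted p = 0.896).

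**Figure D2:**
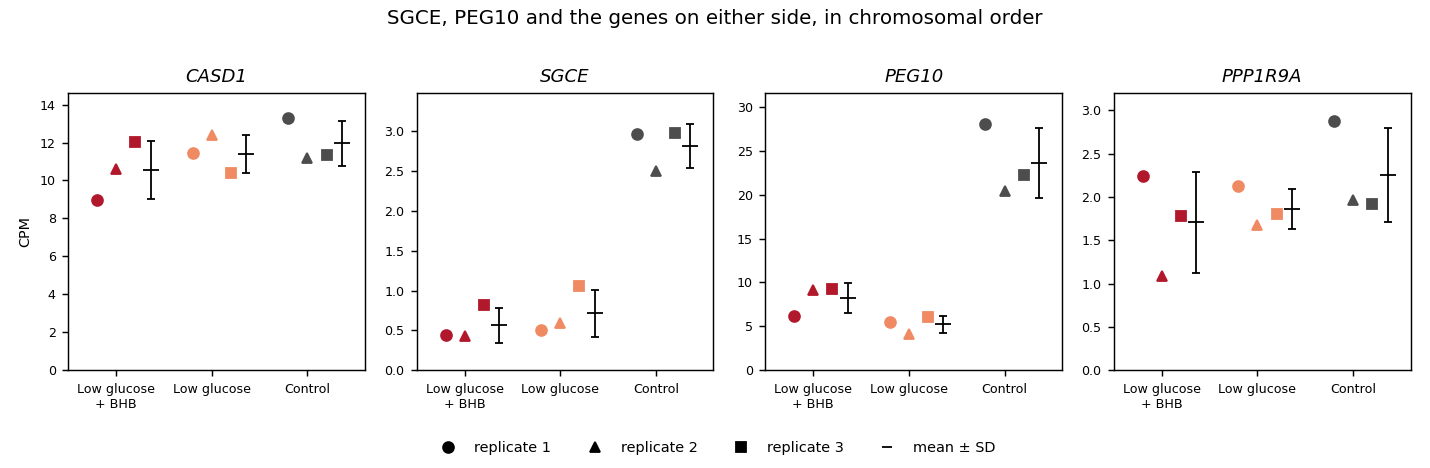
Levels in TMM-scaled CPM (linear vertical axes) of SGCE, PEG10 and the genes on either side of them, in the order of the RefSeq table, in the 9 libraries by medium, with mean and SD. Only the middle genes separate control from both low glucose media: SGCE lies between 0.432 and 1.05 CPM in low glucose libraries and between 2.50 and 2.97 CPM in control, while CASD1 and PPP1R9A overlap.

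MEST, NNAT and NAP1L5 complete the set and are paternally expressed. MEST encodes a protein of the hydrolase family that marks mesoderm in the mouse, NNAT a small membrane protein, and NAP1L5 a relative of the nucleosome assembly proteins. MEST stood at 3.02, 1.31 and 3.00 CPM with BHB, at 0.901, 1.46 and 2.95 CPM in low glucose, and at 4.77, 2.29 and 3.31 CPM in control. The media overlapped, and the log2 fold change was -0.50 with BHB against control (SE 0.477) and -0.96 in low glucose against control (SE 0.481, edgeR adjusted p = 0.776).

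COPG2, a gene of vesicle coats whose span overlaps that of MEST in the RefSeq table, averaged 15.7 ± 1.11 CPM with BHB, 12.2 ± 0.776 CPM in low glucose and 17.5 ± 1.21 CPM in control (SD, n = 3 each). Its low glucose libraries lay below those of both other media, but the difference from control, -0.52 on the log2 scale, did not pass (SE 0.147, edgeR adjusted p = 0.133). The labels name no strand-specific kit, so reads of overlapping genes may be credited to the wrong gene. This holds here, for NNAT within BLCAP, NAP1L5 within HERC3 and PLAGL1, whose span overlaps that of ZC2HC1B. All 9 values of MEST, NNAT, NAP1L5 and PLAGL1 were whole numbers, so they gave no sign that estimation had divided their reads.

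NNAT and NAP1L5 varied least of the members, 1.67-fold and 1.73-fold between the lowest and highest library. NNAT stood at 8.84, 12.3 and 8.55 CPM with BHB, at 10.7, 10.2 and 9.99 CPM in low glucose, and at 12.9, 11.3 and 14.3 CPM in control. NAP1L5 stood at 8.01, 5.02 and 5.09 CPM with BHB, at 5.80, 5.39 and 5.29 CPM in low glucose, and at 5.88, 8.67 and 7.67 CPM in control. For both genes the low glucose libraries lay just below all control libraries, while those with BHB overlapped control.

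The log2 fold changes in low glucose against control were -0.32 for NNAT (SE 0.189, edgeR adjusted p = 0.924) and -0.43 for NAP1L5 (SE 0.247, edgeR adjusted p = 0.904). With BHB against control they were -0.37 for NNAT (95% interval -0.78 to 0.04) and -0.30 for NAP1L5 (95% interval -0.83 to 0.24). BLCAP, the host of NNAT, averaged 67.9 ± 3.80 CPM with BHB, 67.2 ± 2.43 CPM in low glucose and 64.4 ± 3.28 CPM in control (SD, n = 3 each).

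**Figure D3:**
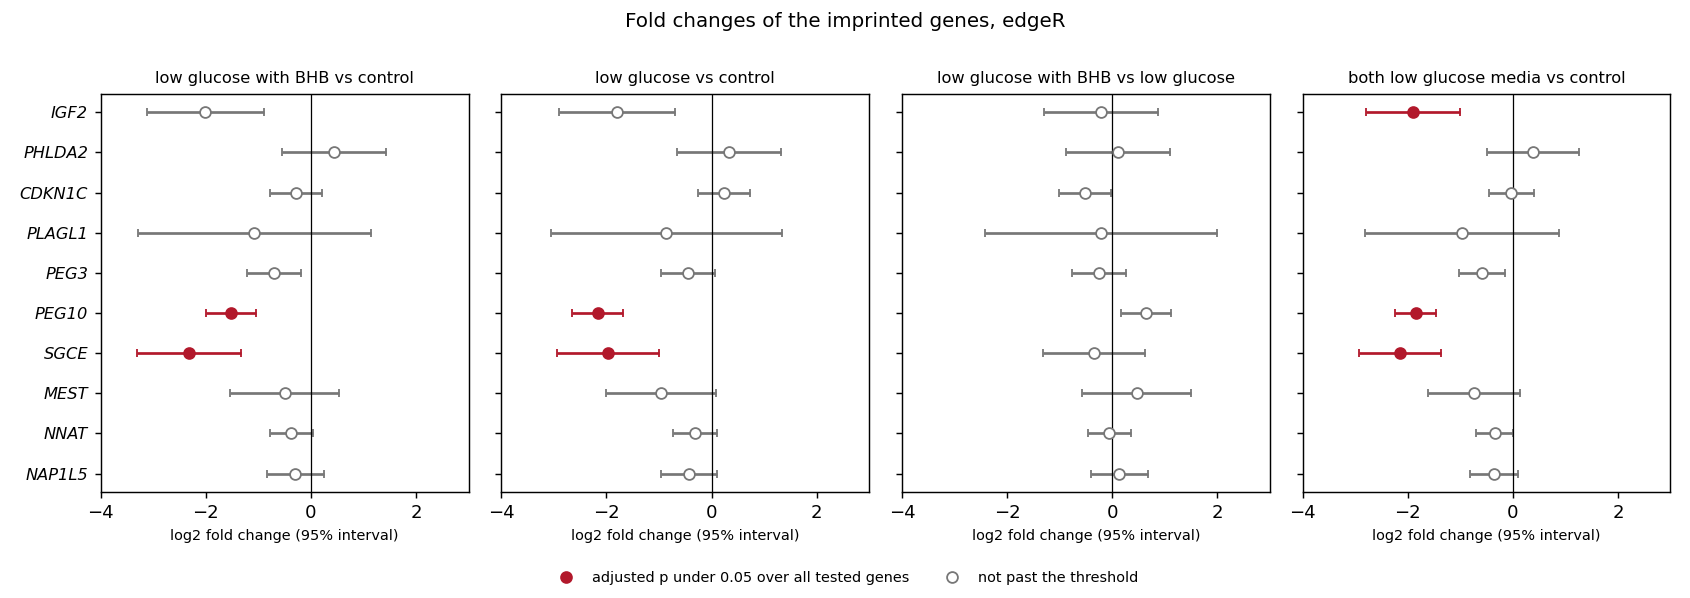
Log2 fold changes of the 10 imprinted genes with 95% intervals from edgeR in 4 comparisons, the first medium named over the second. Filled points passed an adjusted p of 0.05: PEG10 and SGCE in each comparison with control and IGF2, at -1.90, with both low glucose media together.

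Against control, 2 of the 10 members were lower with BHB, where 1.38% of all tested genes were lower, and 2 in low glucose, where 2.02% were. With both low glucose media together, 3 members were lower against 2.87% of all tested genes. None was higher, against 0.00607% of all tested genes in each of these comparisons. The members and their number were chosen with earlier results of these data known. These counts, and the non-overlap counts and medians that follow, are therefore no independent evidence about imprinted genes. Libraries that did not overlap and were all lower numbered 4 members with BHB (8.56% of all tested genes) and 5 in low glucose (8.85%). In 3 members all 6 low glucose libraries lay below all control libraries, against 5.56% of all tested genes. The median log2 fold change of the 10 members was -0.60 with BHB and -0.66 in low glucose, against 0.01 and 0.02 over all tested genes.

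**Figure D4:**
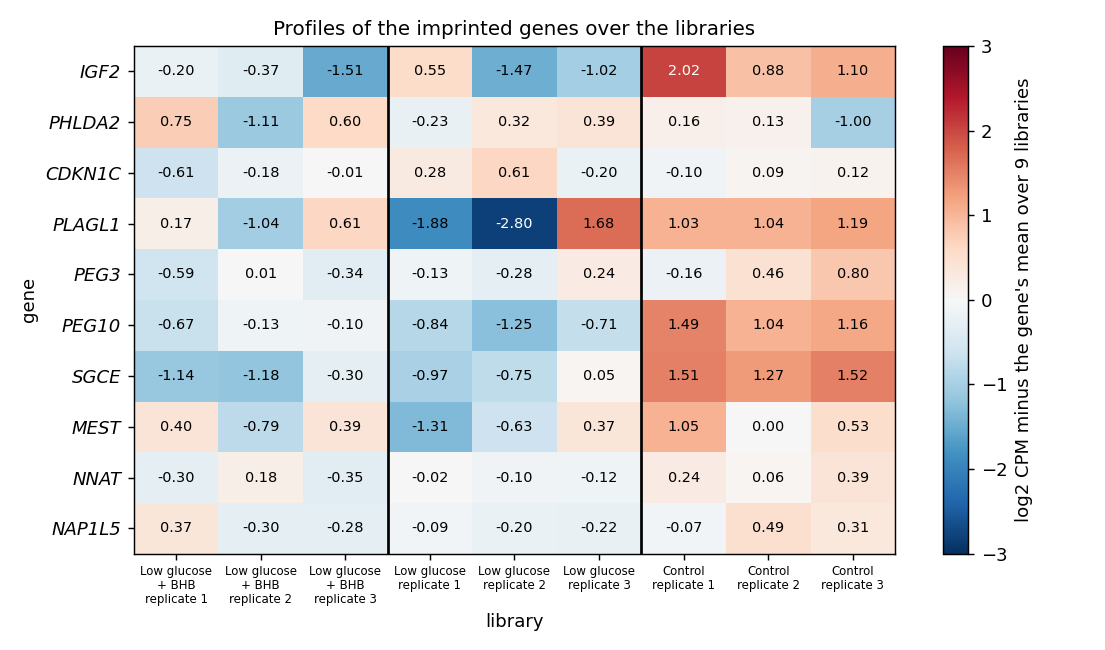
Log2 CPM of the imprinted genes (rows) in each library (columns, grouped by medium), minus the gene's mean over the 9 libraries, with the value printed in each cell. PEG10 lies between 1.04 and 1.49 in control and at or under -0.10 in the 6 low glucose libraries, while PLAGL1 ranges from -2.80 to 1.68 within low glucose.

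Adding BHB to the low glucose medium gave no call in any gene by edgeR (0 of 16469 tested, 0%, with 270 or 1.64% at an unadjusted p under 0.05), and DESeq2 called 2 genes, neither of them a member. PEG10 was higher in all 3 libraries with BHB than in any low glucose library without it, at 8.19 ± 1.69 CPM against 5.25 ± 0.973 CPM (SD, n = 3 each), as were 2.96% of all tested genes. Its log2 fold change of 0.64 (95% interval 0.17 to 1.12) did not pass (edgeR adjusted p = 1.00, unadjusted p = 0.0119). CDKN1C had the next smallest unadjusted p among the members, 0.0431 by edgeR, with a log2 fold change of -0.52 (95% interval -1.01 to -0.02, adjusted p = 1.00). For IGF2 the interval ran from -1.30 to 0.87, and for SGCE from -1.31 to 0.62, both spanning 0 widely.

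Other imprinted genes mostly did not follow PEG10 and SGCE. Of 56 further symbols listed as imprinted in some mammal, 47 were in the table and 42 were tested, in 43 entries since GNAS has 2. The list includes PPP1R9A, COPG2 and BLCAP, given above as neighbours of members. AXL and MAOA were lower against control in both low glucose media, and no entry was higher. Among all tested genes 1.38% were lower with BHB and 2.02% in low glucose. The median log2 fold change of the list was 0.03 with BHB and 0.02 in low glucose. Neither AXL nor MAOA belongs to the classical imprinted clusters. AXL, a receptor tyrosine kinase gene, stood at 2.69, 6.90 and 5.33 CPM with BHB, at 6.15, 3.84 and 3.85 CPM in low glucose, and at 28.7, 18.0 and 31.2 CPM in control. The log2 fold change of AXL was -2.38 with BHB (SE 0.342, edgeR adjusted p = 0.00536) and -2.49 in low glucose (SE 0.344, edgeR adjusted p = 0.00258).

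MAOA, which encodes monoamine oxidase A, stood at 1.05, 1.52 and 0.782 CPM with BHB, at 0.855, 0.760 and 1.10 CPM in low glucose, and at 4.05, 5.28 and 3.83 CPM in control. All low glucose libraries of both genes lay below all control libraries. The log2 fold change of MAOA was -1.97 with BHB (SE 0.357, edgeR adjusted p = 0.0180) and -2.28 in low glucose (SE 0.361, edgeR adjusted p = 0.00541).

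Genes that protect imprints in the early embryo did not pass: of 8 tested, 0 were called in any comparison, and their median log2 fold change was 0.02 with BHB and -0.05 in low glucose. With 1.38% and 2.02% of all tested genes lower there, 8 genes are too few to show fewer calls than that share. TRIM28, a corepressor recruited to imprinted regions, averaged 1064 ± 75.7 CPM with BHB, 1049 ± 146 CPM in low glucose and 941 ± 78.2 CPM in control (SD, n = 3 each). ZFP57, the zinc finger protein that recruits it in the mouse, averaged 76.4 ± 10.5 CPM with BHB, 67.6 ± 8.30 CPM in low glucose and 73.9 ± 11.3 CPM in control. DPPA3, which shields maternal methylation in the mouse zygote, averaged 101 ± 22.6 CPM with BHB, 111 ± 24.5 CPM in low glucose and 110 ± 10.7 CPM in control.

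The receptors and binding proteins around IGF2 divided. Of 14 genes of this axis 12 were tested, and 2, IGFBP5 and IGFBP7, were lower than control in each low glucose medium. The share of all tested genes that were lower was 1.38% with BHB and 2.02% in low glucose. This list too was chosen with earlier results of these data known, so its count is no independent evidence about the axis. The axis had a median of -0.07 with BHB and -0.04 in low glucose. IGFBP5, which binds insulin-like growth factors in the matrix, stood at 49.0, 142 and 108 CPM with BHB, at 54.0, 70.6 and 50.4 CPM in low glucose, and at 232, 331 and 400 CPM in control. Its log2 fold change was -1.69 with BHB (SE 0.318, edgeR adjusted p = 0.0212) and -2.46 in low glucose (SE 0.327, edgeR adjusted p = 0.00202).

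IGFBP7, a more distant relative of these binding proteins, was lower in all 6 low glucose libraries, which lay between 38.0 and 60.6 CPM, against 131 to 207 CPM in control. IGF2R, the receptor that removes IGF2 and is imprinted itself in cattle, averaged 136 ± 21.7 CPM with BHB, 132 ± 17.6 CPM in low glucose and 133 ± 25.1 CPM in control (SD, n = 3 each). IGF1R, through which IGF2 signals, averaged 53.9 ± 12.7 CPM with BHB, 51.9 ± 9.16 CPM in low glucose and 65.6 ± 4.82 CPM in control, and neither receptor passed in any comparison.

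**Figure D5:**
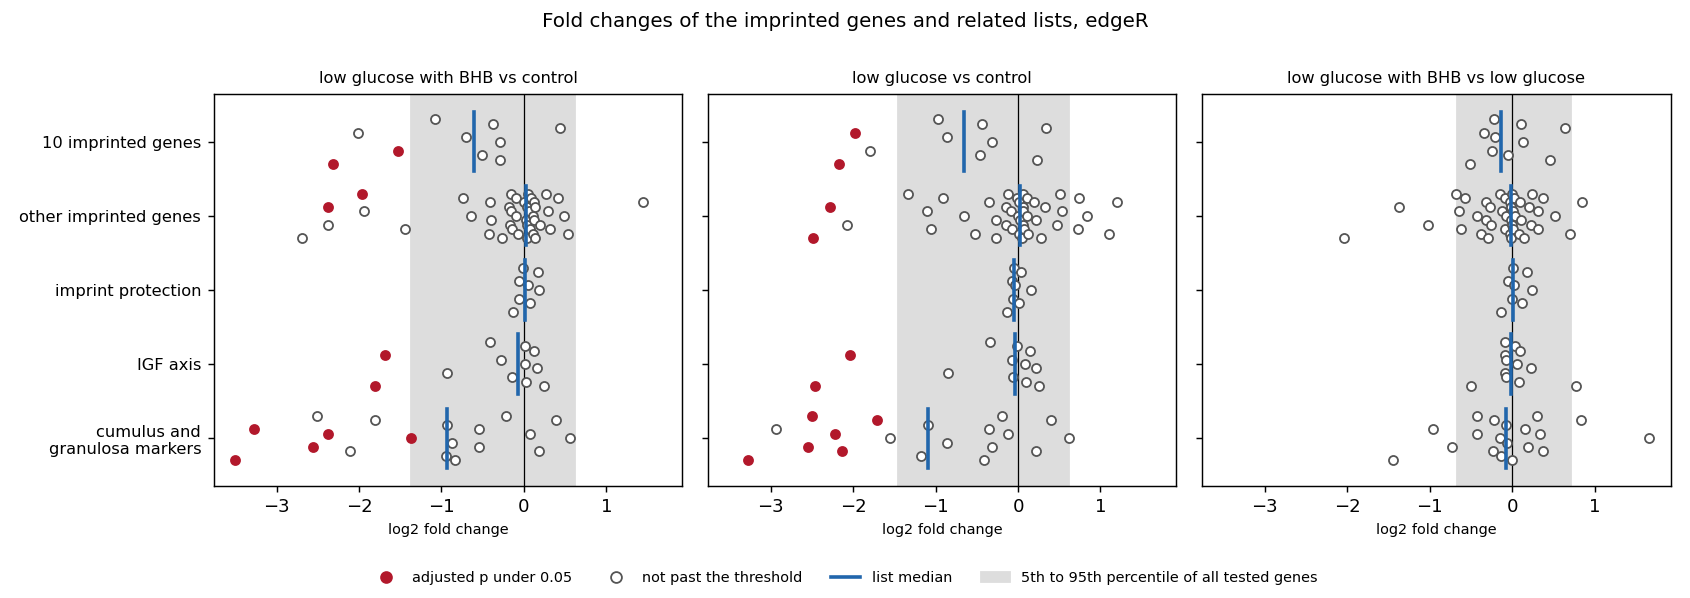
Log2 fold changes from edgeR (horizontal axes) of the imprinted genes, the further imprinted genes, the genes of imprint protection, the IGF axis and cumulus or granulosa markers in 3 comparisons, with the list median as a bar and the 5th to 95th percentile of all tested genes shaded. The median of the 10 members is -0.60 with BHB and -0.66 in low glucose, while that of the further imprinted genes is 0.03 and 0.02. Members and lists were chosen with earlier results of these data known, so the contrast of these medians is no independent evidence. INHA, with no counts in low glucose, is left out of points and bars in every panel. The bar of the cumulus and granulosa markers in low glucose against control is therefore at -1.09.

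Markers of cell types differed between the same libraries. Of 20 markers of cumulus and granulosa cells, which surround the oocyte during maturation, 5 were lower with BHB and 6 in low glucose. Among all tested genes 1.38% and 2.02% were lower in these comparisons. The markers too were chosen with earlier results of these data known, so their counts and medians are no independent evidence about these cells. The 20 markers had a median log2 fold change of -0.94 with BHB and -1.13 in low glucose. INHA had 0 counts in low glucose and 107 in control, at 66, 0 and 41 in the control libraries. Set at a bound of 3 counts over the group, it stood at -5.13, still below the median, so the median could not move from -1.13. Without INHA the median in low glucose was -1.09. Their summed level was 607 to 1162 CPM with BHB, 538 to 1272 CPM in low glucose and 850 to 988 CPM in control. Without PTGS2, which made up most of that sum in low glucose and was set aside after its values were seen, the sum was 142 to 234 CPM with BHB, 124 to 260 CPM in low glucose and 395 to 504 CPM in control. LUM, a proteoglycan of connective tissue picked after its values were seen, stood at 12.4, 12.4 and 12.1 CPM with BHB, at 23.7, 13.8 and 5.34 CPM in low glucose, and at 204, 125 and 88.0 CPM in control. VCAN stood at 73.4 to 76.4 CPM in control and 5.15 to 25.5 CPM in the other media. LUM and VCAN were thus a large part of that gap. FSHR, CYP19A1 and HSD3B1 overlapped control in both low glucose media, FSHR at 3.32 to 3.85 CPM with BHB, 3.70 to 5.67 CPM in low glucose and 3.55 to 4.61 CPM in control. In 6 of the 20 markers all libraries of both low glucose media lay below all control libraries, against 5.56% of all tested genes. In 0 markers did they all lie above. Those lower included NR5A2, at 3.25 to 5.82 CPM against 10.3 to 13.3 CPM in control. INHBA was also among them, at 2.28 to 4.46 CPM against 4.92 to 7.13 CPM. The summed hypoblast markers were 5261 to 7623 CPM with BHB, 7243 to 7884 CPM in low glucose and 5648 to 6457 CPM in control. In every low glucose library without BHB the sum was higher than in any control library. FN1 made up most of each hypoblast sum, at 6055 to 6612 CPM in low glucose and 4743 to 5308 CPM in control. Each other hypoblast marker overlapped between low glucose and control. The summed epiblast markers were 1178 to 1254 CPM with BHB, 1077 to 1248 CPM in low glucose and 1033 to 1158 CPM in control, higher in every library with BHB than in any control library. POU5F1 made up most of each epiblast sum, at 1017 to 1085 CPM with BHB and 888 to 1007 CPM in control. Each other epiblast marker overlapped between BHB and control. The summed trophectoderm markers overlapped, at 16144 to 19702 CPM with BHB, 15591 to 18146 CPM in low glucose and 12987 to 17777 CPM in control. KRT8 and KRT18 made up most of each sum. CLDN7 lay above control in both media, at 173 to 263 CPM with BHB, 177 to 244 CPM in low glucose and 142 to 169 CPM in control. GATA3 lay above control in low glucose alone, at 122 to 136 CPM against 82.0 to 117 CPM. Each other trophectoderm marker overlapped control in both media. No single marker of these 3 lineages passed in any comparison. The part of all these markers in the lower PEG10, SGCE and IGF2 was not tested, and in pools of whole embryos fewer cells of a type and less RNA per cell cannot be told apart.

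The genes most like each called member in profile were ranked by the root mean square difference of log2 CPM, each gene centred on its own mean, over the 9 libraries. Nearest to PEG10 were TSC22D1 (0.25), a transcriptional regulator with a second entry in the table, PTPRN (0.25) and CD276 (0.26), an immune checkpoint gene. Nearest to SGCE were HTRA3 (0.30), a serine protease gene, PLXNA4 (0.32), a semaphorin receptor gene, and CYP39A1 (0.33). Nearest to IGF2 were TAGLN (0.38), which marks smooth muscle and other contractile cells, PLEK (0.40) and COL3A1 (0.41), a fibrillar collagen gene. COL3A1 averaged 7.50 ± 2.05 CPM with BHB, 9.35 ± 7.55 CPM in low glucose and 34.8 ± 10.6 CPM in control (SD, n = 3 each). PEG10 and SGCE differed from each other by 0.52, and for both of them no other member lay closer. The closest members to each other were PEG3 and NNAT, at 0.30. This measure grows with the size of the changes, so genes that vary little lie close to each other. The nearest genes were picked as the closest of all tested genes, so their smaller differences say nothing about how alike PEG10 and SGCE are.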

How the data were processed

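Gene-level estimated counts of 9 libraries were deposited by the authors without normalization, and 18.9% of its values were not whole to within 0.001. The tools listed are kallisto, fastp and DESeq2, with build bosTau9, per the submitters' processing notes, which give here no versions, annotation or roles. Polyadenylated RNA was enriched, per the labels' protocols. Kallisto divides reads matching several transcripts by estimation. Libraries were grouped by their titles. Of the symbols, the table supplied 17706 and RefSeq (ARS-UCD2.0, names and neighbours alone) 323, and 4098 genes had none.

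Estimated counts were rounded, then analysed with edgeR 4.0.16 (R 4.3.3): filterByExpr (minimum count 10, minimum total 15), TMM factors, and a quasi-likelihood model with a mean for each of 3 media over all 9 libraries, two-sided, Benjamini-Hochberg adjustment over 16469 genes, threshold 0.05. SEs were derived from the F statistic, intervals are at 95%, and log2 CPM used a prior count of 2. No replicates agreed within sampling noise (lowest chi-square per degree of freedom 40.0). Members and lists were chosen with earlier results of these data known. Named genes are all members, those past the threshold in the lists of further imprinted genes, imprint protection and the IGF axis, and fixed controls. Chromosomal neighbours and the 3 nearest profiles of each called member are named too. Markers of cell types were not named by this rule, and those past the threshold are not all named. LUM, VCAN, NR5A2, INHBA, FSHR, CYP19A1, HSD3B1, FN1, POU5F1, CLDN7, GATA3, INHA, PTGS2 and COL3A1 were picked for print after their values were seen. The steps were tested on simulated data. Figures used matplotlib 3.10.9.

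Alternatives were RLE factors, other filters, DESeq2 1.42.0, a replicate block, smaller fits and left-out libraries. Deviations of same-numbered libraries from their group means correlated at 0.115, 0.243 and 0.102 between the low glucose media, which met a rule of all pairs over 0.1. Against control the rule was not met (0.0417 to 0.144), though some of these values were higher than those between the low glucose media. Libraries of unlike number were not compared, so it is not settled whether the numbers pair any samples.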

Additional observations from a re-analysis of the deposited data

How the results depend on the processing

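Of the calls for members, those of PEG10 in low glucose and with both low glucose media together held in every alternative run that tested them. Leaving out each library in turn gave 1 to 2 called members in low glucose, 1 to 3 with BHB, 2 to 3 for both media together and 0 between the low glucose media, and 196 to 391, 91 to 257, 294 to 476 and 0 called genes. Without the first replicates of all media, SGCE was lost in each comparison with control (-2.13 with BHB, -1.74 in low glucose, -1.94 for both), no member (0) and 99 genes were called with BHB, and 312 genes for both media together. DESeq2 called 581 genes in low glucose, 441 with BHB and 2 for BHB against none, against 334, 228 and 0 by edgeR. RLE factors moved the median of all genes by at most 0.00537 (log2).

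With the replicate block, IGF2 passed against control at -1.97 with BHB (edgeR adjusted p = 0.00839) and -1.94 in low glucose (edgeR adjusted p = 0.00687), and 3 members were called in each. Whether the numbers pair control with the other media is not known, so these calls rest on a pairing that the labels do not state. IGF2 with BHB also passed with no filter (-2.01) and in the fit of 6 libraries (-2.00), and in low glucose without the first replicates (-2.23). Over all alternatives the adjusted p of IGF2 ran from 0.00839 to 0.446 with BHB and from 0.00687 to 0.573 in low glucose. The block changed no call between the low glucose media, but turned PLAGL1 there to 0.64. Without the first replicates, differences there that had not passed turned sign for MEST (-0.037), NNAT (0.052), PHLDA2 (-0.38), IGF2 (0.41) and NAP1L5 (-0.079). Single left-out libraries turned sign, between the low glucose media, for PHLDA2 (-0.20 to 0.50), IGF2 (-0.56 to 0.64), SGCE (-0.70 to 0.037), PLAGL1 (-0.76 to 2.72), NNAT (-0.24 to 0.042) and NAP1L5 (-0.12 to 0.25), and for CDKN1C with both media against control (-0.12 to 0.067). None of these had passed. The cause of these shifts was not tested. Counts of 3 to 94 limit PLAGL1.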
